A study of Oryctolagus cuniculus with 134 samples.

Results

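The mitral and aortic valves of the same rabbits were compared for how their gene expression responded to a cholesterol diet combined with cardiac irradiation (IR/CHT). The libraries were chosen by tissue (mitral valve or aortic valve) and treatment (IR/CHT or Ctrl), and 27 of the 134 libraries of the study were of this kind. They came from 14 rabbits, of which 13 gave both valves (6 Ctrl and 7 IR/CHT), and 1 Ctrl rabbit gave only the aortic valve. The question was whether a gene changed by a different amount in the mitral than in the aortic valve, so the measure of interest was the response of the mitral valve minus that of the aortic valve.

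All animals were male New Zealand White rabbits, 12 weeks old at the start of protocols that lasted 16 weeks. Ctrl rabbits received standard chow and no vitamin D2. IR/CHT rabbits received chow with 0.3% cholesterol, vitamin D2 (25000 U daily, scaled to body weight, over 15 days), and cardiac irradiation of 24 Gy in 3 fractions of 8 Gy after 8 weeks. The X-ray beam was aimed at the aortic valve and the thoracic aorta. The dose that reached the mitral valve is not given in the sources used here, so the valve and the dose it received cannot be told apart. CHT rabbits, which had the same diet and vitamin D2 without irradiation, are used below to set the effect of the diet beside that of the added irradiation. Diet and vitamin D2 cannot be told apart in this design. Lard rabbits, on a lard-enriched diet with the same vitamin D2 and no irradiation, entered the models but none of the comparisons reported here.

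Both valves are thin leaflets of layered extracellular matrix, made and maintained by valve interstitial cells and covered by endothelium. Cholesterol overload draws monocytes into the leaflet, where they become lipid-laden macrophages (foam cells), while surplus sterol shuts down the synthesis and uptake of cholesterol in cells and activates the LXR receptors that promote its export. Irradiation damages DNA, activates p53 and can induce interferon-responsive genes. Valve formation depends on transcription factors such as GATA4 and TBX20 and on Wnt, BMP and TGF-beta signals.

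The 27 libraries held 13978094 to 26273291 counts (median 17823638). Markers of valve interstitial cells and fibroblasts had a summed level of 27199 to 34577 CPM (median 31830.0) in aortic and 27160.0 to 38361 CPM (median 33550.0) in mitral Ctrl libraries. These markers were thus present in the Ctrl libraries of both tissues. Levels are given in CPM, counts scaled to library size. Some libraries stood apart. In aortic valves of Ctrl rabbits, the share of counts on the 13 mitochondrial protein genes ranged from 0.0389% to 1.82% (median 0.336%), and it was lowest in rabbits L08719 (0.0389%), L08256 (0.0514%) and L08273 (0.101%). It ranged from 0.321% to 1.10% in mitral valves of Ctrl rabbits, from 0.155% to 0.974% in aortic and from 0.162% to 1.0% in mitral valves of IR/CHT rabbits. Ctrl aortic valves of rabbits L08742 and L08709 had the highest summed level of heart muscle contraction genes, 15530.0 and 6315 CPM, against 982 to 2454 CPM in the other 5. The counts of several gene lists are therefore also given without L08273 and L08719, the rabbits of low mitochondrial share with both valves, and without L08709 and L08742.

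**Figure D1:**
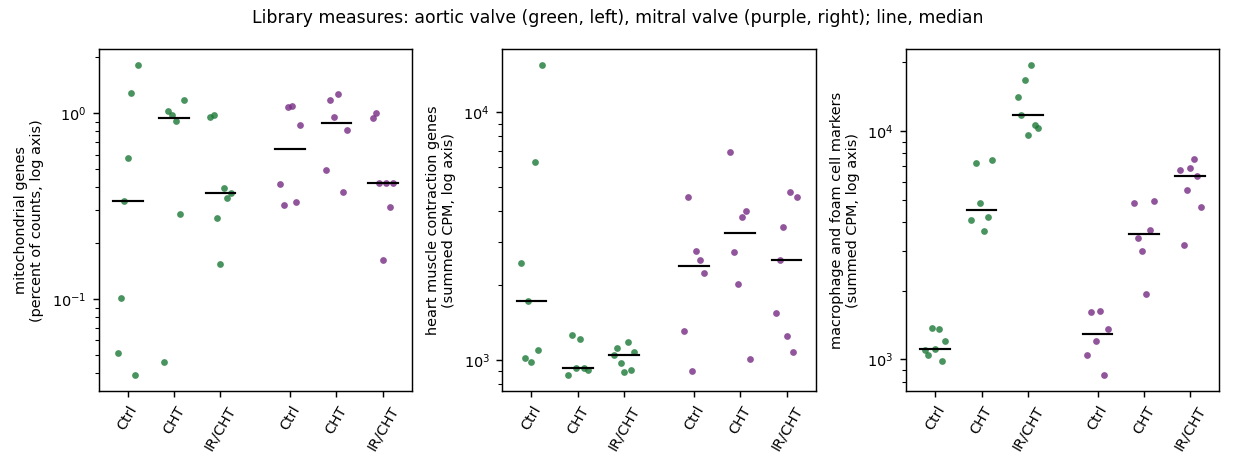
Measures of each library (points) in aortic (green) and mitral (purple) valves of Ctrl, CHT and IR/CHT rabbits, with the median as a line, on log axes: the percentage of counts on mitochondrial protein genes, and the summed CPM of heart muscle contraction genes and of macrophage and foam cell markers. Among aortic valves of Ctrl rabbits, the mitochondrial share spans 0.0389% to 1.82%, and macrophage markers stand at 986 to 1367 CPM against 9642 to 19486 CPM in IR/CHT.

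More genes changed in the aortic than in the mitral valve. IR/CHT changed 6587 of 15408 tested genes in the aortic valve (42.8%; 3251 higher and 3336 lower than in Ctrl) and 2715 of 15322 in the mitral valve (17.7%; 1696 higher and 1019 lower), at an adjusted p under 0.05 and a fold change over 1.5. The difference of response itself, tested within rabbits, was called for 5308 of 16123 genes (32.9%) at an adjusted p under 0.05 in edgeR's quasi-likelihood test. It was higher in the mitral valve for 2698 genes (16.7%) and lower for 2610 (16.2%). A fit without the pairing of valves by rabbit (no replicate block) called 2066, of which 2048 were among the 5308. The libraries lay on 2 plates, and among rabbits with both valves on plate 1 (3 Ctrl and 4 IR/CHT) 3453 genes were called and on plate 2 (2 Ctrl and 3 IR/CHT) 319. Of these, 3242 and 302 were among the 5308, all in the same direction. Without the Ctrl rabbits L08273 and L08719, 4310 genes were called, and without L08709 and L08742, 5288.

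Most of these differences were changes of the aortic valve that the mitral valve had to a smaller extent or that did not pass the test there. Not all differences were of this kind, since 21.3% of the 2698 genes with a higher response in the mitral valve and 25.1% of the 2610 with a lower one were called in neither valve. Of the 2698 genes with a higher response in the mitral valve, 1575 were lower than Ctrl in the aortic valve and not called in the mitral valve, 456 were lower in both, and 9 were lower in the aortic and higher in the mitral valve. Of the 2610 genes with a lower response in the mitral valve, 1222 were higher than Ctrl in the aortic valve and not called in the mitral valve, and 687 were higher in both. The median response of the first class was -1.48 in the aortic and -0.16 in the mitral valve on the log2 scale, and that of the second class 1.0 and 0.21, beside -0.05 and -0.01 over all genes measured in both valves. The change was the larger in the aortic valve for 93.9% of the first class and 95.3% of the second, against 73.2% of all genes. Difference scores of IR/CHT and Ctrl rabbits, taken as the log2 CPM of the mitral minus that of the aortic valve in each animal, did not overlap for 1700 genes (10.5%), 860 higher (5.33%) and 840 lower (5.21%) on IR/CHT.

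**Figure D2:**
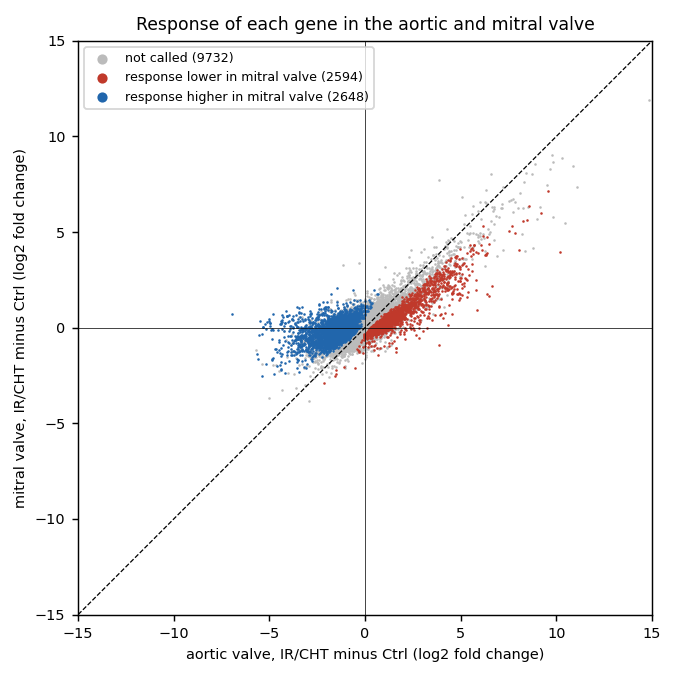
The log2 fold change of IR/CHT against Ctrl in the aortic valve (x axis) and the mitral valve (y axis) for the 14974 genes tested in both, with genes called for a difference of response in red (lower in the mitral valve, 2594) or blue (higher, 2648) and the line of equal response dashed. Blue points lie mostly below 0 on the aortic axis and near 0 on the mitral axis, and red points lie mostly to the right of 0 and under the dashed line.

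The gene with the smallest p was TIMP1 (ENSOCUG00000010718), an inhibitor of matrix metalloproteinases. Its level was 47.7 to 100.2 CPM (median 61.5) in Ctrl and 389.9 to 762.4 CPM (median 513) in IR/CHT aortic valves, and 71.9 to 136 CPM (median 94.0) and 119 to 183.2 CPM (median 131) in mitral valves. Every IR/CHT aortic valve was thus above every other library, while the mitral groups lay close to each other. The log2 fold change was 2.87 in the aortic and 0.42 in the mitral valve, a difference of -2.38 ± 0.19 (SE; adjusted p = 3.46e-09). FN1, which encodes the matrix protein fibronectin, stood at 3559 to 10049 CPM (median 6976) in Ctrl and 12854 to 27286 CPM (median 23735) in IR/CHT aortic valves, with no overlap, and at 7344 to 11745 CPM (median 10130.0) and 6287 to 13196 CPM (median 9967) in mitral valves, where the groups overlapped. The difference of response was -1.55 ± 0.18 (adjusted p = 1.73e-06). Matrix genes EMILIN2 and TGFBI were of the same kind, with differences of -1.40 ± 0.18 and -0.98 ± 0.13. EMILIN2 rose in both valves (log2 fold change 2.24 in the aortic and 0.81 in the mitral valve), whereas TGFBI rose in the aortic valve (0.95) and was at -0.06 in the mitral valve.

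Among the other genes of the 12 with the smallest p in this direction, RRM2, a subunit of ribonucleotide reductase, was at 0.241 to 1.47 CPM (median 0.503) in Ctrl and 18.3 to 41.3 CPM (median 24.5) in IR/CHT aortic valves. In mitral valves it was at 1.29 to 3.94 CPM (median 1.98) and 8.004 to 23.2 CPM (median 14.97), and the response differed by -3.09 ± 0.31 (adjusted p = 1.68e-07). It rose in both valves, by more in the aortic valve. SAMHD1, an enzyme that breaks down deoxynucleotides, rose by 2.44 in the aortic and 0.82 in the mitral valve on the log2 scale. LMNB1 (lamin B1) rose by 2.79 and 1.38, ST3GAL5 (the ganglioside GM3 synthase) by 3.02 and 1.11, FRMD4A by 2.25 and 1.0, and TNLG7A by 5.05 and 2.30. TIAM1, an exchange factor for the GTPase Rac, rose by 2.56 in the aortic valve and was at 0.49 in the mitral valve. ZMAT3, a p53 target, rose by 1.81 and was at 0.46. Adjusted p-values of these differences ranged from 8.17e-08 (TIAM1) to 3.26e-06 (TNLG7A).

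**Figure D3:**
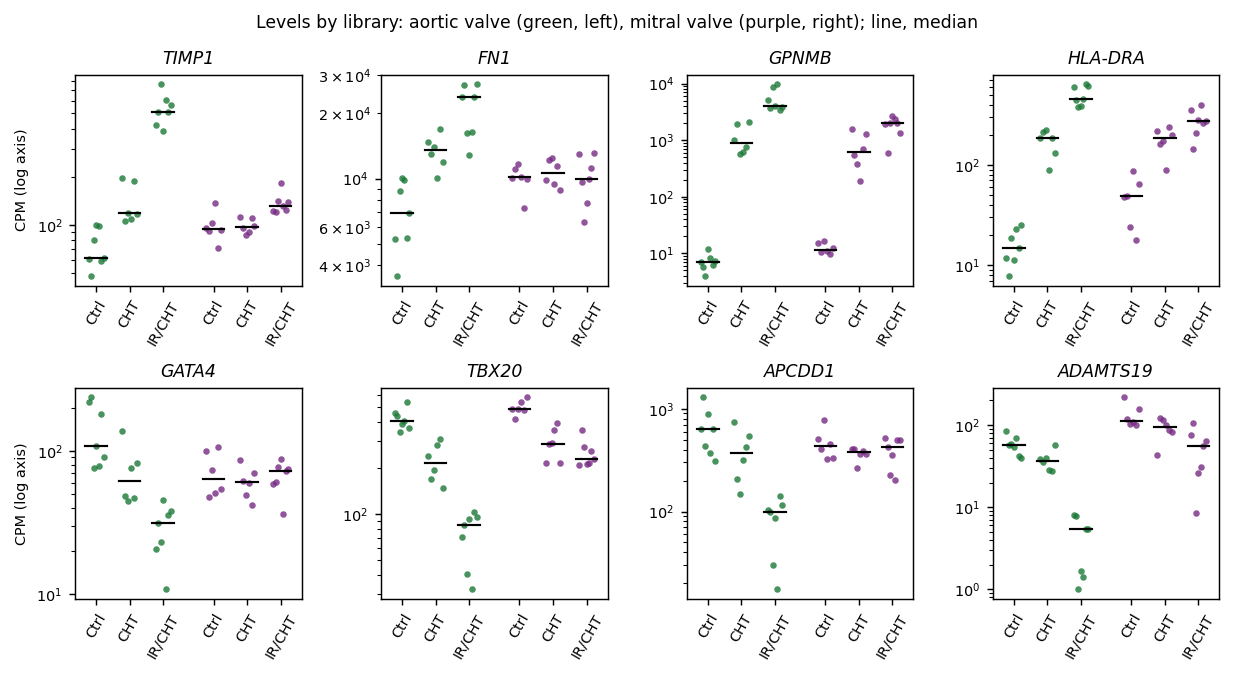
Levels (CPM, log axis) of 8 genes in each library of aortic (green) and mitral (purple) valves of Ctrl, CHT and IR/CHT rabbits, with the median as a line. TIMP1, FN1, GPNMB and HLA-DRA are highest in IR/CHT aortic valves, and GATA4, TBX20, APCDD1 and ADAMTS19 are lowest there, with TIMP1 at 389.9 to 762.4 CPM and GATA4 at 10.8 to 45.5 CPM.

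Markers of macrophages and foam cells rose in both valves and by more in the aortic valve. Of 21 tested, 18 rose in each valve (against 21.1% of all genes in the aortic and 11.1% in the mitral valve). A difference of response was called for 13, all lower in the mitral valve (16.2% of all genes). The median response was 3.73 in the aortic and 2.14 in the mitral valve on the log2 scale. Their summed level was 986 to 1367 CPM (median 1107) in Ctrl and 9642 to 19486 CPM (median 11742) in IR/CHT aortic valves, and 852 to 1637 CPM (median 1287) and 3158 to 7564 CPM (median 6352) in mitral valves. In bulk tissue, more cells of a type and more RNA per cell cannot be told apart. GPNMB, a glycoprotein of lipid-laden macrophages, went from 3.99 to 12.2 CPM (median 6.997) to 3483 to 9787 CPM (median 4047) in the aortic valve and from 9.80 to 16.6 CPM (median 11.7) to 599.8 to 2722 CPM (median 2005) in the mitral valve. The groups did not overlap in either valve, and the response differed by -2.41 ± 0.36 (adjusted p = 2.37e-05). The lectin LGALS3 differed by -2.31 ± 0.35, the matricellular protein SPP1 (osteopontin) by -1.96 ± 0.33 and the lysosomal glycoprotein CD68 by -1.11 ± 0.29. For CD68 the within-rabbit differences of the 2 treatments overlapped. Without Ctrl rabbits L08273 and L08719, 14 of the 21 were called, and without L08709 and L08742, 9.

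Genes of antigen presentation and lysosomes were also called. Of all genes 21.1% rose in the aortic and 11.1% in the mitral valve, and 16.2% had a lower response in the mitral valve. Of 8 tested genes of MHC class II presentation, 8 rose in the aortic and 6 in the mitral valve, and 6 had a lower response in the mitral valve, and 6 also without either pair of Ctrl rabbits. HLA-DRA, the alpha chain of a class II molecule, was at 7.79 to 25.4 CPM (median 14.97) in Ctrl and 376 to 640.2 CPM (median 450.1) in IR/CHT aortic valves, and at 17.9 to 86.4 CPM (median 48.6) and 143 to 396 CPM (median 276.9) in mitral valves. It was higher in the mitral than in the aortic valve of each Ctrl rabbit (by 0.26 to 2.60 on the log2 scale) and lower in each IR/CHT rabbit (-1.64 to -0.18), a difference of -2.34 ± 0.34 (adjusted p = 1.97e-05). CD74, the invariant chain that escorts class II molecules, differed by -1.86 ± 0.32 and the co-stimulatory receptor CD86 by -1.96 ± 0.34. Of 19 lysosome and proton pump genes, 18 rose in the aortic and 17 in the mitral valve, and 16 had a lower response in the mitral valve, and 16 also without either pair. They included ATP6V1B2, a subunit of the proton pump (-1.28 ± 0.19), the glucuronidase GUSB (-1.69 ± 0.25) and the sterol transporter NPC1 (-0.87 ± 0.14). Of 7 neutrophil markers, 3 rose in the aortic valve, and of 4 tested in the mitral valve 1 rose (2 by DESeq2). For the difference of response, 0 of the 7 were called by edgeR or DESeq2 and 0 had an unadjusted p under 0.05, and the median difference was -0.18. Of 5 T and natural killer cell markers 2 were lower in the mitral valve, of 3 mast cell markers 1, and of 6 B and plasma cell markers 1 was higher, beside 16.2% of all genes lower and 16.7% higher, so that the last count is that of all genes. Both calls of T and natural killer cell markers were lost without L08709 and L08742.

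Genes that store, esterify and export lipid also had called differences between the valves. Of 7 LXR targets 4, and of 12 genes of fatty acid synthesis and lipid storage 7, had a lower response in the mitral valve, and 1 of the latter had a higher one. Of all genes 16.2% had a lower response. Without L08273 and L08719 these lower counts were 4 and 6, and without L08709 and L08742 4 and 7. PLIN2, the coat protein of lipid droplets, was at 12.7 to 30.9 CPM (median 24.6) in Ctrl and 196.9 to 481 CPM (median 247.2) in IR/CHT aortic valves, and at 21.9 to 30.9 CPM (median 28.0) and 66.6 to 156.97 CPM (median 104) in mitral valves. Its response differed by -1.67 ± 0.22 (adjusted p = 3.82e-06). SOAT1, which esterifies cholesterol, differed by -1.49 ± 0.25, the fatty acid carrier FABP5 by -1.33 ± 0.28 and the LXR target LPCAT3 by -1.30 ± 0.22. ABCA1, the LXR-controlled cholesterol exporter, rose by 4.96 in the aortic and 4.11 in the mitral valve, and differed by -0.93 ± 0.24 (adjusted p = 0.00436).

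Of 18 sterol synthesis and uptake genes, 12 fell in the aortic valve (against 21.7% of all genes) and 14 in the mitral valve (against 6.65%), with medians of -1.41 and -1.25. Here 8 had a lower and 3 a higher response in the mitral valve, 6 and 2 without L08273 and L08719, and 7 and 4 without L08709 and L08742. Of all genes 16.2% had a lower and 16.7% a higher response, so that the higher count with all rabbits is that of all genes. The synthesis enzyme NSDHL fell in the mitral valve (-0.95) and was at 0.33 in the aortic valve, a difference of -1.24 ± 0.20 (adjusted p = 4.64e-05). STARD4, a sterol carrier, rose in the aortic valve (2.41) and was at 0.69 in the mitral valve. HMGCS1 and SQLE, enzymes of the same pathway, fell in both valves and further in the mitral valve, with differences of -0.73 ± 0.26 (adjusted p = 0.0317) and -0.71 ± 0.24 (adjusted p = 0.0260). The call of HMGCS1 was lost when any of 6 rabbits was left out in turn and that of SQLE for any of 3, and both were lost without L08273 and L08719 together.

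Genes of cell division rose in both valves, with a response that was lower in the mitral valve for 24 of 27 tested genes (16.2% of all genes). Of these 27, 26 rose in each valve (21.1% of all genes in the aortic and 11.1% in the mitral valve), and the medians were 3.66 in the aortic and 1.86 in the mitral valve. TOP2A, the topoisomerase of dividing cells, was at 0.883 to 7.13 CPM (median 3.84) in Ctrl and 20.4 to 62.2 CPM (median 50.3) in IR/CHT aortic valves, and at 4.39 to 20.001 CPM (median 11.0) and 17.9 to 47.6 CPM (median 32.2) in mitral valves. TOP2A was higher in the mitral valve of each Ctrl rabbit (1.14 to 2.98 on the log2 scale), and the IR/CHT rabbits lay on both sides of 0 (-1.52 to 0.24). Its difference was -2.11 ± 0.3 (adjusted p = 1.35e-05), that of the cytokinesis protein ANLN -2.20 ± 0.3, and that of the mitotic kinesin KIF23 -2.21 ± 0.33. Of 21 DNA replication genes 11 had a lower response in the mitral valve, among them MCM10 (-2.16 ± 0.38) and PCNA (-1.33 ± 0.24). Without L08273 and L08719, 24 cell division and 14 DNA replication genes were called, and without L08709 and L08742, 20 and 9. Of 17 p53 targets 8 had a lower response (8 and 6 without these pairs), with ZMAT3 (-1.20 ± 0.15), TP53INP1 (-1.36 ± 0.18) and GADD45A (-0.58 ± 0.14) at the smallest p. TP53INP1 rose in the aortic valve (1.62) and was at 0.19 in the mitral valve. CDKN1A and MDM2 carried no symbol in the tables and were not analysed here.

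Interferon-responsive genes had a lower response in the mitral valve for 12 of 16 tested (16.2% of all genes), and for 10 without either pair of Ctrl rabbits. In the aortic valve 14 of 15 tested rose (21.1% of all genes), and in the mitral valve 7 of 16 (11.1%). OAS2, an antiviral sensor of double-stranded RNA, was at 0.369 to 4.35 CPM (median 1.997) in Ctrl and 20.2 to 74.7 CPM (median 65.5) in IR/CHT aortic valves, and at 1.22 to 5.28 CPM (median 2.16) and 9.32 to 28.2 CPM (median 16.5) in mitral valves. The response differed by -2.0 ± 0.40 (adjusted p = 0.000390), and that of the RNA helicase IFIH1 by -0.99 ± 0.20. Within-rabbit differences overlapped between treatments for OAS2 and not for IFIH1. Of 14 inflammatory cytokines and chemokines 12 rose in the aortic valve, and of 12 tested in the mitral valve 6 rose (9 by DESeq2), and 4 of 14 had a lower response in the mitral valve, led by the monocyte attractant CCL2 (-2.25 ± 0.39). Of 18 genes of glutathione and oxidative stress defence, 8 were lower, including the catalase CAT (-1.20 ± 0.16) and the thioredoxin TXN (-1.46 ± 0.24).

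**Figure D4:**
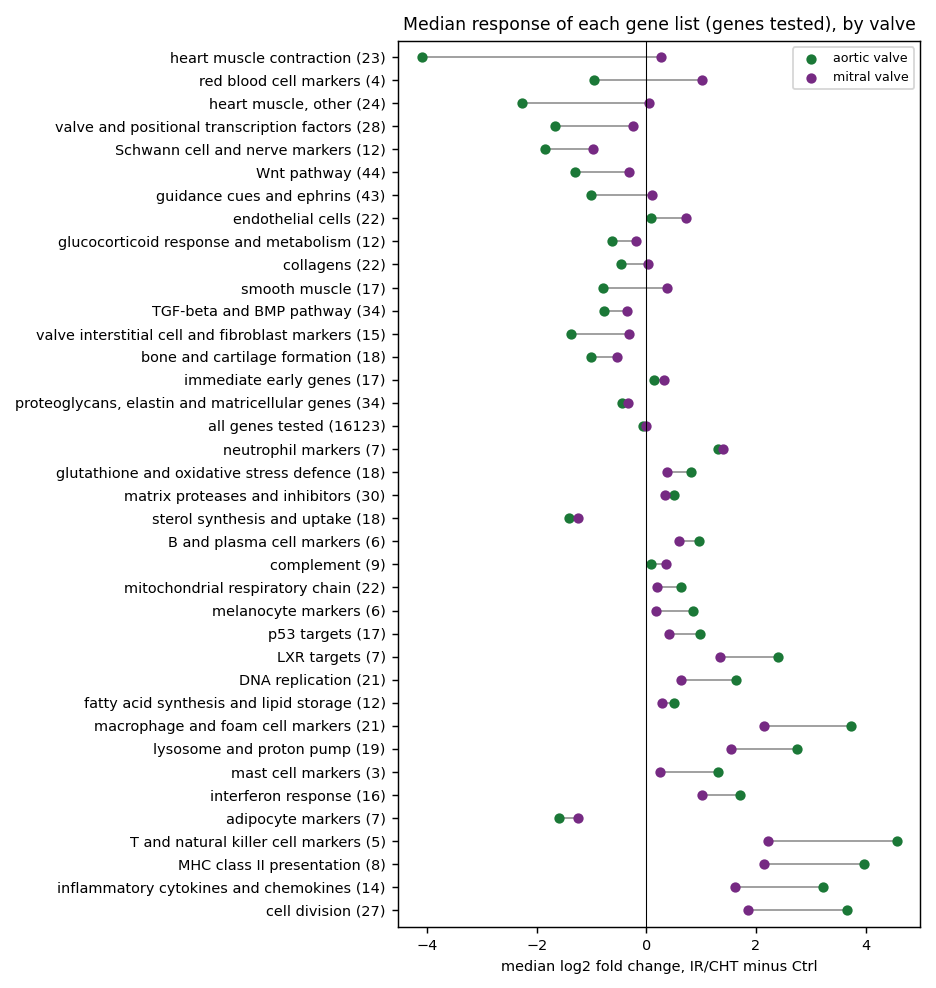
Median log2 fold change of IR/CHT against Ctrl in the aortic (green) and mitral (purple) valve for each of 37 gene lists and for all genes tested, ordered by the median difference of response, with the number of genes tested in parentheses. Macrophage, lysosome and cell division lists have the higher median in the aortic valve (3.66 and 1.86 for cell division). Heart muscle, transcription factor and Wnt lists are lower in the aortic valve. The neutrophil and complement medians are not higher in the aortic valve, although the median difference of response was -0.18 and -0.37. The neutrophil medians cover 7 genes in the aortic and 4 in the mitral valve, so they are not of the same genes.

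Most transcription factors of the valve and heart fell in the aortic valve. Their response was higher in the mitral valve for 16 of 28 tested and lower for none by edgeR (1 at an unadjusted p under 0.05, and 0 by DESeq2). Of all genes 16.7% had a higher and 16.2% a lower response. Of 26 tested in the aortic valve 19 fell and 4 rose (21.7% and 21.1% of all genes). Of 25 in the mitral valve 4 fell and 1 rose (6.65% and 11.1% of all genes). Both counts of rises lie under the share of all genes. GATA4 (ENSOCUG00000002199), a zinc finger factor needed for the endocardial cushions, was at 76.0 to 236.2 CPM (median 108) in Ctrl and 10.8 to 45.5 CPM (median 31.5) in IR/CHT aortic valves, and at 47.7 to 107 CPM (median 63.8) and 36.4 to 88.0 CPM (median 72.6) in mitral valves. It was lower in the mitral than in the aortic valve of each Ctrl rabbit (-1.25 to -0.57) and higher in each IR/CHT rabbit (0.95 to 1.74), a difference of 2.03 ± 0.18 (adjusted p = 3.85e-08). Its 3 highest Ctrl aortic levels were those of the rabbits with the lowest mitochondrial share. TBX20, a T-box factor of valve and myocardium, was at 347 to 541.7 CPM (median 405) and 32.2 to 103 CPM (median 84.6) in Ctrl and IR/CHT aortic valves and at 419.6 to 580.5 CPM (median 486) and 210.1 to 358 CPM (median 228.2) in mitral valves. It fell in both, with a difference of 1.56 ± 0.23 (adjusted p = 2.18e-05). HAND2, a factor of heart development, fell in the aortic valve (-1.06), was at 0.18 in the mitral valve, and differed by 1.28 ± 0.19. Without L08273 and L08719 the 28 gave 13 higher and 1 lower, and without L08709 and L08742 12 higher.

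Of 44 genes of the Wnt pathway, 25 had a higher and 4 a lower response in the mitral valve, beside 16.7% and 16.2% of all genes, so that the lower share was under that of all genes. Of 42 tested in each valve, 28 fell and 3 rose in the aortic valve, and 11 fell in the mitral valve (21.7% and 6.65% of all genes fell). Among the ligands, WNT16 was at 131 to 479.7 CPM (median 286) in Ctrl and 13.3 to 83.1 CPM (median 53.4) in IR/CHT aortic valves, and at 255 to 536 CPM (median 373) and 81.1 to 347 CPM (median 241.4) in mitral valves, a difference of 1.83 ± 0.29 (adjusted p = 3.62e-05). Its receptor family member FZD2 fell in the aortic valve (-1.41), was at 0.24 in the mitral valve, and differed by 1.52 ± 0.25. APCDD1, a membrane-bound inhibitor of Wnt signalling, was at 313 to 1289 CPM (median 633) and 17.5 to 142 CPM (median 99.4) in the aortic and at 328 to 781 CPM (median 432) and 201.1 to 520.3 CPM (median 421) in the mitral valve. Every IR/CHT aortic valve was below every other library, and the response differed by 2.74 ± 0.3 (adjusted p = 6.56e-07). DKK1, a secreted inhibitor, went the other way (-2.33 ± 0.80; adjusted p = 0.0271) at levels of 1.402 to 5.01 CPM in IR/CHT aortic valves, and this call was lost when any of 4 rabbits was left out in turn. Without L08273 and L08719, the 44 gave 24 higher and 4 lower, and without L08709 and L08742 25 and 2.

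Of 43 guidance cues and ephrins, 20 had a higher and 5 a lower response in the mitral valve (16.7% and 16.2% of all genes), and 18 were not called. SEMA5A, a semaphorin, was at 22.4 to 63.2 CPM (median 26.7) and 3.87 to 15.7 CPM (median 6.46) in the aortic and at 13.1 to 28.2 CPM (median 20.7) and 14.4 to 29.4 CPM (median 21.0) in the mitral valve, a difference of 2.18 ± 0.25 (adjusted p = 1.21e-06). SEMA3B differed by 1.89 ± 0.24 and the ephrin receptor EPHA3 by 1.86 ± 0.24. Of 34 genes of the TGF-beta and BMP pathway, 14 were higher, 4 lower and 16 not called. The lower shares of both lists were under that of all genes. Without L08273 and L08719 these lists gave 18 higher and 5 lower, and 12 and 3, and without L08709 and L08742 20 and 4, and 13 and 5. The co-receptor TGFBR3 (betaglycan) fell in both valves and further in the aortic valve (0.95 ± 0.13), and the ligand GDF10 fell in the aortic valve (3.22 ± 0.55). Adjusted p-values of these 5 genes ranged from 1.21e-06 to 9.10e-05.

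**Figure D5:**
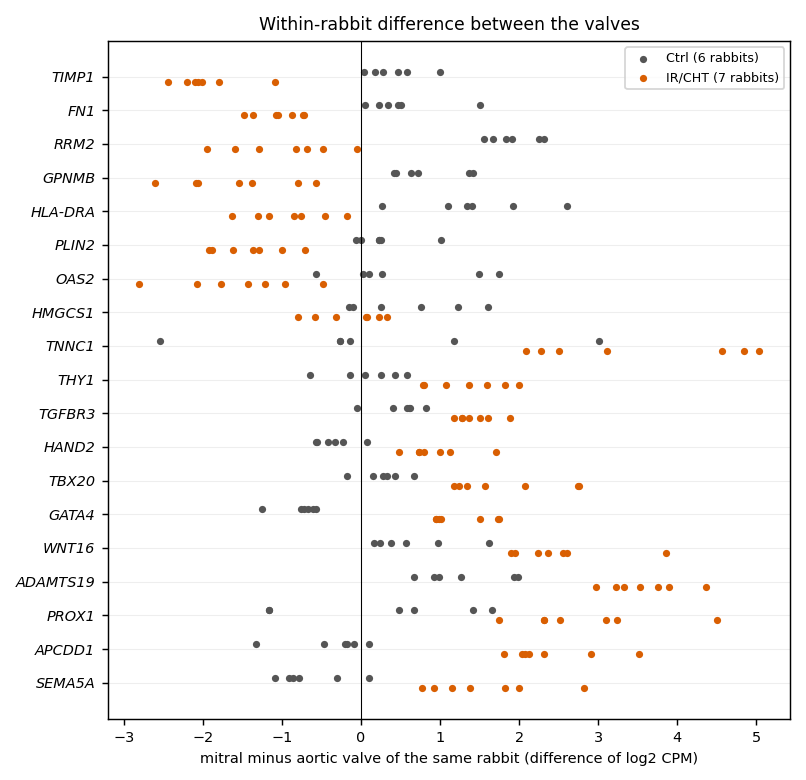
Log2 CPM of the mitral minus the aortic valve in the same animal for 19 genes, in 6 Ctrl rabbits (grey) and 7 IR/CHT rabbits (orange). TIMP1 lies at 0.04 to 1.0 in Ctrl and -2.44 to -1.09 in IR/CHT, APCDD1 at -1.33 to 0.1 and 1.81 to 3.52, and the points of HMGCS1 and TNNC1 overlap.

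The gene with the smallest p for a higher response in the mitral valve was TMOD1, which caps actin filaments. It was at 67.7 to 103 CPM (median 77.3) in Ctrl and 5.61 to 14.7 CPM (median 10.1) in IR/CHT aortic valves and at 67.8 to 92.9 CPM (median 72.3) and 26.6 to 38.8 CPM (median 33.5) in mitral valves. It fell in both valves, and the response differed by 1.88 ± 0.15 (adjusted p = 3.46e-09). PRKG1, a cGMP-dependent protein kinase, fell in both valves, with log2 fold changes of -2.53 in the aortic and -0.83 in the mitral valve. The cation channel TRPM3 stood at -4.00 and -1.74, the scaffold HOMER2 at -3.06 and -1.18, the GABA-B receptor subunit GABBR1 at -2.23 and -0.68, SELENBP1 at -2.93 and -0.98, and ZNF365 at -3.05 and -1.89, each called in both valves. CGN (cingulin, a tight junction protein), FGFR4 (a fibroblast growth factor receptor), PDE3A (a phosphodiesterase of cyclic nucleotides) and the protocadherin PCDHB5 fell in the aortic valve (-3.65, -2.58, -1.55 and -2.0) and were not called in the mitral valve (-0.62, -0.21, -0.34 and -0.41). PCDHB5 belongs to a cluster of closely related genes, so its counts may include reads of its neighbours.

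Matrix genes were called in both directions, beside 16.7% of all genes higher and 16.2% lower. Of 22 collagens, 9 had a higher and 4 a lower response in the mitral valve, of 34 proteoglycans, elastin and matricellular genes 9 and 6, and of 30 matrix proteases and inhibitors 9 and 7. The lower counts of collagens and proteoglycans are near the share of all genes. Without L08273 and L08719 the 3 lists gave 11 and 4, 12 and 5, and 6 and 8, and without L08709 and L08742 9 and 4, 7 and 6, and 10 and 6. COL9A2 and COL11A2, cartilage-type collagens, differed by 3.0 ± 0.40 and 3.0 ± 0.44 and COL6A6 by 1.90 ± 0.28. COL11A2 was at 11.9 to 138 CPM (median 33.7) in Ctrl and 1.31 to 8.88 CPM (median 2.94) in IR/CHT aortic valves and at 2.20 to 11.4 CPM (median 4.10) and 1.48 to 7.10 CPM (median 3.47) in mitral valves, so that this was a change from a high aortic to a low level found in both valves. The fibrillin FBN2 and matrilin MATN4 differed by 2.12 ± 0.26 and 2.39 ± 0.29. ADAMTS19, a matrix protease, was at 40.0 to 85.6 CPM (median 56.9) and 1.001 to 7.96 CPM (median 5.39) in Ctrl and IR/CHT aortic valves and at 102 to 218 CPM (median 114) and 8.52 to 106 CPM (median 55.0) in mitral valves, a difference of 2.33 ± 0.3 (adjusted p = 3.46e-06). The procollagen protease ADAMTS3 differed by 1.78 ± 0.27. Of 15 valve interstitial cell and fibroblast markers, 5 had a higher response in the mitral valve, among them THY1 (1.25 ± 0.21), FBLN1 (1.17 ± 0.20) and MFAP5 (1.66 ± 0.3), and 1 a lower one. Of 18 bone and cartilage formation genes, 5 were higher and 2 lower. SOX5, a factor of chondrocytes, fell in both valves and further in the aortic valve (1.24 ± 0.17). RUNX2, the osteoblast factor, rose in both valves, at levels of 0.912 to 5.73 CPM in IR/CHT aortic and 0.739 to 3.13 CPM in IR/CHT mitral valves, and its difference was not called (-0.99 ± 0.63; adjusted p = 0.229).

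Heart muscle genes fell in the aortic valve. Of 23 genes of heart muscle contraction, 19 fell in the aortic valve (21.7% of all genes). A higher response in the mitral valve was called for 14 (16.7% of all genes). Within the mitral valve none was called by edgeR or DESeq2 (17.7% of all genes by edgeR), and 2 had an unadjusted p under 0.05. TNNC1, cardiac troponin C, was at 11.4 to 288 CPM (median 39.3) in Ctrl and 1.39 to 10.8 CPM (median 2.79) in IR/CHT aortic valves, and at 12.2 to 92.0 CPM (median 67.2) and 12.5 to 94.4 CPM (median 49.0) in mitral valves. The difference was 3.36 ± 0.86 (adjusted p = 0.00438), and within-rabbit differences overlapped. NEBL (a nebulin of the Z-disc), MYOM2 (an M-band protein) and CSRP3 (a Z-disc LIM protein) differed by 2.80 ± 0.44, 4.77 ± 1.11 and 4.08 ± 1.01, and myoglobin MB by 2.77 ± 0.93. Heart muscle content of Ctrl aortic valves differed between rabbits, with a summed level of contraction genes of 982 to 15530.0 CPM (median 1732), against 894 to 1176 CPM (median 1048) in IR/CHT aortic valves. Without L08709 and L08742, the rabbits with the highest of these sums, 7 of the 23 were called, and the call of MB was lost. How much muscle was taken with each leaflet was not tested. Of 24 other heart muscle genes, 14 were higher and 1, the gap junction gene GJA1 (-1.58 ± 0.27), was lower, beside 16.7% and 16.2% of all genes. The counts of this list without L08709 and L08742 are not given here.

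Markers of further cell types gave smaller counts. Of all genes 16.7% had a higher and 16.2% a lower response in the mitral valve. Of 17 smooth muscle genes, 7 had a higher response in the mitral valve, such as SYNPO2 (0.95 ± 0.18) and PDGFRB (0.88 ± 0.20), and 1 a lower one. The 7 include DES (3.45 ± 0.72), which encodes desmin and is also a heart muscle gene. It was at 17.3 to 303 CPM (median 52.2) in Ctrl and 2.06 to 17.4 CPM (median 5.07) in IR/CHT aortic valves, highest in L08742, the Ctrl rabbit with the highest sum of heart muscle contraction genes, and its difference was still called without L08709 and L08742. ACTA2, the smooth muscle actin of activated interstitial cells, rose in both valves (1.10 and 1.43), and its difference was not called (0.38 ± 0.34; adjusted p = 0.425). Of 22 endothelial genes, 4 were higher, a share near the 16.7% of all genes. They included PROX1, a factor of lymphatic and valve endothelium, at 29.1 to 70.3 CPM (median 45.0) in Ctrl and 2.73 to 19.4 CPM (median 9.16) in IR/CHT aortic valves and 22.7 to 94.2 CPM (median 61.8) and 27.1 to 130.04 CPM (median 64.3) in mitral valves (2.45 ± 0.46; adjusted p = 0.000222). ENG (1.47 ± 0.39) and TEK (1.83 ± 0.60) lost their call without L08273 and L08719, which left 1 of the 22. Summed endothelial levels ranged from 333 to 1581 CPM in Ctrl aortic and from 308 to 1947 CPM in Ctrl mitral valves. Of 12 Schwann cell and nerve markers, 5 were higher, among them ERBB3 (2.07 ± 0.26) and NGFR (2.86 ± 0.40). Of 7 adipocyte markers, 2 were lower, PPARG (-3.36 ± 0.67) and LPL (-3.03 ± 0.72), both also active in macrophages, but within the aortic valve 2 of 5 tested markers rose and 3 fell. LPL, a lipoprotein lipase, was at 6.99 to 79.5 CPM (median 24.6) in Ctrl and 121 to 1097 CPM (median 188.4) in IR/CHT aortic valves, with no overlap, and at 15.3 to 178.2 CPM (median 72.7) and 47.2 to 393 CPM (median 102) in mitral valves, where the groups overlapped. The summed level of the 7 was 18.5 to 122 CPM in Ctrl and 135 to 1127 CPM in IR/CHT aortic valves, most of it LPL in the latter, and 31.4 to 315 CPM and 62.6 to 435 CPM in mitral valves.

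The remaining lists are set beside 16.7% of all genes higher and 16.2% lower. Of 12 glucocorticoid-responsive genes, 5 were higher and 1 lower, with ZBTB16 (1.5 ± 0.23) and PER1 (2.12 ± 0.39) at the smallest p. Of 22 genes of the mitochondrial respiratory chain, 8 were lower, 0 by edgeR without L08273 and L08719, and 19 without L08709 and L08742, so that this count depended on which Ctrl rabbits were included. By DESeq2, 9 were lower with all rabbits, and 17 had an unadjusted p under 0.05 in edgeR. Immediate early genes gave 1 higher and 1 lower of 17, complement genes 2 and 2 of 9, melanocyte markers 1 and 1 of 6, and red blood cell markers 1 higher of 4. The melanocyte shares are those of all genes, and the immediate early shares lie under them.

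The contribution of diet and added irradiation was set side by side through CHT rabbits, which gave both valves in 6 animals, all on plate 1. The response to CHT differed between the valves for 801 genes (4.97%; 437 higher and 364 lower in the mitral valve), and the response to IR/CHT relative to CHT for 1678 (10.4%; 1233 higher and 445 lower). The 2 comparisons share the CHT libraries, and the first shares its Ctrl libraries with the comparison above. Within each valve, IR/CHT against CHT gave 3043 genes in the aortic valve (1526 higher and 1517 lower) and 29 in the mitral valve (8 higher and 21 lower). Of the 801 and 1678 calls, 54.6% and 73.5% were higher, and with DESeq2 size factors 74.9% of 737 and 59.0% of 1774. The count of 801 depended on the fit. It was 0 without the replicate block, where 1339 genes had an unadjusted p under 0.05, and 65 without the filter on low counts, and it was 1760 with DESeq2.

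The list counts that follow stand beside 4.97% of all genes called by edgeR for CHT and 10.4% for IR/CHT relative to CHT. For cell division, 12 of 27 genes (15 by DESeq2) had a called difference between the valves in the response to CHT and 0 by edgeR in that to IR/CHT relative to CHT (3 at an unadjusted p under 0.05, and 3 by DESeq2). TOP2A had a difference of -1.92 ± 0.31 (adjusted p = 0.00426) in the first and -0.20 ± 0.29 (adjusted p = 0.752) in the second, and RRM2 -2.59 ± 0.32 and -0.49 ± 0.26. SPP1 was of the same kind, with -1.81 ± 0.34 (adjusted p = 0.0154) and -0.15 ± 0.32 (adjusted p = 0.853). Heart muscle contraction genes were called for 6 of 23 in the first and 1 in the second (19 and 2 by DESeq2, and 19 and 1 at an unadjusted p under 0.05). The first comparison includes L08709 and L08742, the Ctrl rabbits with the highest heart muscle levels, and was not run without them. The second does not use Ctrl levels. TNNC1 levels in CHT aortic valves were 0.557 to 6.68 CPM. For the Wnt pathway, 2 of 44 genes were called in the first (1 in each direction) and 20 in the second, all higher in the mitral valve. By DESeq2 these were 6 (5 higher and 1 lower) and 19, and at an unadjusted p under 0.05 they were 12 (8 and 4) and 26 (24 and 2). APCDD1 had 0.43 ± 0.31 (adjusted p = 0.358) and 2.31 ± 0.3 (adjusted p = 1.51e-05), and WNT16 -0.07 ± 0.29 and 1.90 ± 0.29. Valve transcription factors gave 0 of 28 by edgeR in the first (4 at an unadjusted p under 0.05, and 2 by DESeq2) and 9 in the second, all higher (12 by DESeq2, 10 of them higher), with TBX20 at 0.12 ± 0.24 and 1.43 ± 0.23. Guidance cues gave 2 of 43 and 15 (14 higher), and by DESeq2 7 and 20 (16 higher). Of 16 interferon genes 1 was called in the first and 8 in the second, all lower (1 and 10 by DESeq2), with OAS2 at -0.10 ± 0.41 (adjusted p = 0.894) and -1.90 ± 0.36 (adjusted p = 0.000876). Lysosome genes gave 2 and 8 of 19 (2 and 14 by DESeq2), macrophage markers 3 and 3 of 21 (3 and 9 by DESeq2), and p53 targets 1 and 4 of 17 (1 and 8 by DESeq2). TIMP1 was called in both, at -0.87 ± 0.19 and -1.51 ± 0.18. By edgeR, the Wnt, guidance, interferon and p53 counts of the first comparison were near the share of all genes. So was the macrophage count of the second, and its heart muscle count was under that share. Whether a group's counts differ between the 2 comparisons was not tested.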

How the data were processed

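RNA of the valves (10 ng, SMARTer Stranded Total RNA-Seq Pico kit) was sequenced on an Illumina NovaSeq. According to the study's methods, the authors mapped the reads to OryCun2.0 and counted them on Ensembl genes by means of nf-core/rnaseq. The deposited values are counts of reads per gene for 29587 genes, without normalization or pooling, in 1 table for each of 2 plates. Of these genes, 14716 carried a symbol and the other genes were tested but not named. Apart from trimming, the pipeline ran on its default parameters, the strand setting included, and overlapping or antisense genes may share reads. The gene positions of this build were not used here, so none are given.

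Each library was assigned to its group from its label and to its rabbit from the number at the start of its column name. With group means removed, the expression profiles of both valves of a rabbit had a median correlation of 0.604 (lowest 0.109), above 0.1 in 26 of 26 rabbits, against -0.114 for different rabbits of a treatment. The numbers were therefore taken as pairs.

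The difference of response was fitted in edgeR 4.0.16 (R 4.3.3) on 52 libraries of the 26 rabbits of all 4 treatments (Ctrl, CHT, Lard and IR/CHT) with both valves. Lard rabbits entered no comparison reported here and served for the filter, the scaling and the estimate of the spread. After filterByExpr and TMM scaling, the quasi-likelihood model had the rabbit as a block, the tissue, and tissue by treatment, with 22 residual degrees of freedom. The Ctrl rabbit without a mitral valve library was left out of this fit. Responses within a valve came from 1 model per valve, with all 4 treatments and no block. P-values were adjusted by Benjamini-Hochberg over all genes tested. Genes were called at 0.05, and within a valve also at a fold change over 1.5. CPM are on TMM-scaled library sizes, log2 CPM have a prior count of 2, and replicates are rabbits. At 1 CPM in the smallest library counting alone gives an SD of 26.7%, and at 10 CPM in the median library of 7.49%.

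The 37 gene lists (949 symbols) were written from general knowledge. The comparison, the lists and the libraries set apart were chosen with earlier results of these data known. The genes named are the 12 with the smallest p in each direction, the 3 called members of each list with the smallest p, and a fixed set (among them SQLE, HMGCS1, ABCA1, CD68, SPP1, CDKN1A, MDM2, ACTA2, TNNC1, MB, RUNX2, DKK1 and TBX20). Not every gene so selected is described, and some are not reported here. Lists are described by counts and medians, with no test.

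The model was tested on simulated data for 16123 genes. It called 45% of genes made to differ 2-fold in response and 73% of those made to differ 4-fold, and 4 of 15923 unchanged genes. Alternatives were no block, limma-voom 3.58.1, DESeq2 1.42.0, other size factors, no filter, fewer rabbits, plate, and leaving out each rabbit. Alternatives on mitochondrial share and heart muscle level were chosen after seeing the data. Other tissues were not analysed here.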

Additional observations from a re-analysis of the deposited data

Results flagged for a closer look

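The difference of response between the valves was itself tested, and was called for 5308 genes for IR/CHT against Ctrl, 801 for CHT against Ctrl and 1678 for IR/CHT against CHT.

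Of 388 combinations of 97 genes and the 4 valve and treatment groups, 22 (5.67%) had 1 library far from the others of its group, and chance gives about 1 in 20. The library of rabbit L28376 in the IR/CHT mitral valve group was the outlying one for 7 genes. It was low in CD68 (93.6 CPM against 235.1 to 471 CPM in the other 6), CD74 (437 against 912 to 1232), CD86 (9.89 against 19.2 to 30.6), CCL2 (3.41 against 8.65 to 11.9), TGFBI (359 against 599 to 748) and RUNX2 (0.739 against 1.74 to 3.13), and high in PRKG1 (106 against 52.8 to 69.9). Its summed level of macrophage and foam cell markers was also the lowest of its group, 3158 CPM against 4648 to 7564 CPM. Without this rabbit, 4605 genes were called for the difference of response. In the same group, rabbit L28389 was low in TRPM3 (13.1 CPM), SQLE (3.36 CPM) and EPHA3 (9.23 CPM), and rabbit L28392 was high in TIMP1 (183.2 CPM).

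Among Ctrl mitral valves, rabbit L08273 was high in TMOD1 (92.9 CPM), ADAMTS3 (97.8 CPM) and ERBB3 (173.9 CPM) and low in GADD45A (25.4 CPM), L08719 was low in FN1 (7344 CPM), and L08709 was low in SYNPO2 (560.1 CPM). Among Ctrl aortic valves, rabbit L08742 was low in TRPM3 (91.6 CPM) and SOX5 (117 CPM), L08273 in LMNB1 (2.73 CPM), and L08313 in FRMD4A (23.6 CPM). Among IR/CHT aortic valves, L28389 was low in MCM10 (2.87 CPM).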

How the results depend on the processing

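Across the alternatives for the difference of response to IR/CHT, the count of 5308 genes fell to 2066 without the replicate block, to 3453 among rabbits with both valves on plate 1 (3 Ctrl and 4 IR/CHT) and to 319 on plate 2 (2 Ctrl and 3 IR/CHT), where fewer rabbits entered. All other alternatives gave 4274 to 5993 genes, and every gene shared with the 5308 had the same direction in each of them. The share with a higher response in the mitral valve lay between 47.9% and 57.7%. The CHT comparison, with 801 genes, gave 0 without the replicate block (1339 at an unadjusted p under 0.05), 65 without the filter on low counts and 1760 with DESeq2, and IR/CHT against CHT, with 1678, gave 328 without the block. The cause of these changes was not tested. The share of higher calls moved from 54.6% to 74.9% with DESeq2 size factors (737 genes), 73.6% with DESeq2 and 29.2% without the filter for CHT, and from 73.5% to 59.0% (1774 genes), 54.3% (2372 genes) and 80.2% (1293 genes) for IR/CHT against CHT. Without the block it was 89.6% of the 328 genes of the latter. Counts within a valve stayed within 1.5 times of 6587 and 2715 under every alternative run.

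Of 97 genes of the text, 95 were called, and none of the 97 was reversed under any alternative run. Without the block, 13 lost their call (ZNF365, PER1, PCNA, PDGFRB, GADD45A, CD68, ABCA1, ENG, TEK, MB, SQLE, DKK1 and HMGCS1). Leaving out 1 rabbit at a time, 90 kept their call, and SQLE, HMGCS1, DKK1, MB and TEK lost it at least once, with adjusted p up to 0.0813, 0.103, 0.0633, 0.0748 and 0.0699. ACTA2 gained a call in 1 of these fits. On plate 2 alone, 48 of the 95 lost theirs. Mitochondrial share as a covariate gave 5035 genes and cost the call of HMGCS1.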
